A study of Mus musculus with 11 samples.

Results

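Tight junctions seal the space between neighbouring epithelial cells. Claudins form the strands that cross that space, occludin and its MARVEL-domain relatives sit in the same strands, and cytoplasmic scaffold proteins tie the strands to actin, while the Crumbs complex marks the apical side on which the junction is built. Fibroblasts lack such a belt, and its assembly is a feature of the mesenchymal-to-epithelial change that fibroblasts pass through on the way to induced pluripotency. The genes described here are Cldn3, Cldn4, Cldn6, Cldn7, Ocln, Tjp3, Cgn, Marveld3, Crb3 and Lsr, a list of 10 tight junction and polarity genes taken by symbol from the 19938 genes measured. The list was chosen with earlier results of these data known. Its counts, set below beside shares of all genes, are therefore descriptions and not independent tests of the list. All 10 were measured, each by 1 probe set.

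RNA was taken from mouse embryonic fibroblasts (MEFs), male cells of F1 hybrid embryos at 13.5 days post coitum with the genotype ROSA-rtTA; Nanog-GFP, which all 11 samples share. The rtTA protein switches on a doxycycline-responsive transgene, and the GFP reports the pluripotency gene Nanog. Cells received a PB-TAC piggyBac transposon with the pCyL43 transposase plasmid by FugeneHD, then ES cell medium with doxycycline at 1 ug/mL. The transposon expresses its transgene together with mCherry. It carried a polycistronic reprogramming cassette (EB-C5, OKMS, WTSI, OSKM, OKN-HAMS, MKOS, STEMCCA or OK+9MS), Klf4 alone (Klf4S or Klf4L, the latter titled Klf4+9) or lacZ. A cassette puts Klf4, c-Myc, Sox2 and Oct4 (Pou5f1) on 1 transcript. Cells with a cassette or Klf4 were collected by mCherry sorting at day 6. Cells with lacZ were taken at day 2 without the sort, so day, sort and transgene cannot be told apart in any comparison with lacZ.

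The labels do not give the form of Klf4 in every cassette. From what is known of the published study of these constructs, OSKM, MKOS and OK+9MS carry a long form of Klf4 with 9 more residues at its N terminus. OKMS, STEMCCA, EB-C5 and WTSI carry the short form. OKN-HAMS carries Klf4 with an HA tag at the N terminus. They are called long-Klf4, short-Klf4 and tagged-Klf4 cassettes here. The cassettes also differ in the order of their factors, so Klf4 form and the rest of the cassette cannot be told apart in a comparison of these groups; OKMS, OK+9MS and OKN-HAMS keep the same order by name.

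There was 1 Affymetrix mouse gene array per construct, and values are log2 RMA signals, on which a difference of 1 is 2-fold. Array medians lay between 7.19 and 7.27. Pou5f1 read 11.89 to 13.22 in the 8 cassettes and 5.84 to 6.09 in the other 3 samples, as the labels say. Myc also separated them, by less, at 9.86 to 10.91 in the 8 cassettes and 8.65 to 9.54 in the other 3. Sox2 did not separate them, at 6.22 to 6.88 in 7 cassettes and 7.76 in WTSI, against 6.24 to 6.79 in the other 3, and neither did Klf4, at 9.47 to 10.20 everywhere. Whether these probes read the transgenes was not tested. The 8 fibroblast markers examined lay above the array's low end in every group. That low end was set, after the values were seen, at 6.31, the 95th percentile of 1015 olfactory receptor genes. Spread within a group is spread between different constructs measured a single time, and the p-values refer to that. In a bulk sample, fewer cells making a transcript and less of it in each cell cannot be told apart.

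The promoters of the genes show what they share in sequence. RefSeq promoters (GRCm38.p6, 250 bases before to 50 after the start) were found for 9 of the 10 genes, 13 promoters in all. CACCTG, the E-box bound by the Zeb and Snai repressors of epithelial genes, was searched on both strands. It stood in 11 of the 13 promoters and in 8 of the 9 genes, against 20.2% of 32851 promoters and 22.6% of 27025 genes. Cgn was the gene without it. The promoters were richer in G and C than the rest (median 62.3% against 52.7%), and starts of the same gene can share bases. Those of 4 genes that the results turn on are Cldn4 (chr5:134946885-134947184, minus strand), Cldn7 at its second start (chr11:69965171-69965470, plus strand), Ocln at its second start (chr13:100552449-100552748, minus strand) and Crb3 at its first (chr17:57061951-57062250, plus strand). Capitals mark CACCTG or its reverse complement CAGGTG.
Cldn4: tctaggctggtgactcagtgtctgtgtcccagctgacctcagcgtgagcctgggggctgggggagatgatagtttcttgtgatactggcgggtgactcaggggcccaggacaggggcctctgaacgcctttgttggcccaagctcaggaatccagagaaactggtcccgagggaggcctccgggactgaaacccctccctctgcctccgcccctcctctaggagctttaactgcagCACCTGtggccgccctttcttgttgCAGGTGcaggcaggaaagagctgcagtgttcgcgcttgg
Cldn7: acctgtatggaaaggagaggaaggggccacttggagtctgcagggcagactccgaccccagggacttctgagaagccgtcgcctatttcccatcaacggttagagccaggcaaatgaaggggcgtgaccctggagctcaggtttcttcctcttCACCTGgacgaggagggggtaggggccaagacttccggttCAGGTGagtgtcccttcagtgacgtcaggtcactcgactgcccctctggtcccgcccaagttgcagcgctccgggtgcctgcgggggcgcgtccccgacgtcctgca
Ocln: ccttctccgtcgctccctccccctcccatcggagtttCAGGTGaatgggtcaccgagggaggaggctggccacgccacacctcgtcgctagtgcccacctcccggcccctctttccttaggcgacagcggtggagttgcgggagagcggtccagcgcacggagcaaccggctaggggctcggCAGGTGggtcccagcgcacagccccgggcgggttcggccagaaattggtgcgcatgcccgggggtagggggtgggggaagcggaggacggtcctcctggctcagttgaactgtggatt
Crb3: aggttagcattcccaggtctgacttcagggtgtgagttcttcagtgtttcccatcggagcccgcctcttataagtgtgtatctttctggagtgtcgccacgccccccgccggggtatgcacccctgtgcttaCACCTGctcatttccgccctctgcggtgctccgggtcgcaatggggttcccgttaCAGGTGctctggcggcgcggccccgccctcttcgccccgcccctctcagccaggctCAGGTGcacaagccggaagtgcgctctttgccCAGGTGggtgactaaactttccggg

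The printed promoters of Cldn4, Cldn7 and Ocln hold 2 copies each and that of Crb3 4. For Cldn7 and Ocln the start with more copies is printed; their other start holds 0 and 1, and the other start of Crb3 holds 4. AACCNGTT, the motif of the Grhl factors of epithelia, was found in 1 of the 13 promoters, that of Cgn (chr3:94786433-94786732, minus strand), against 2.09% of all promoters. Capitals mark it in the sequence that follows.
Cgn: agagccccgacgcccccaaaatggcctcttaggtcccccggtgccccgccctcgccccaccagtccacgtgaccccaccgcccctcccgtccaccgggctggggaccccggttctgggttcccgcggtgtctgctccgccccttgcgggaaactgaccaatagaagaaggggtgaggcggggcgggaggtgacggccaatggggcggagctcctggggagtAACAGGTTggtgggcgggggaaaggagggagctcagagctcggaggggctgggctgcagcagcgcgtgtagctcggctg

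CCNCNCCC, the CACCC box of Klf factors, was in 10 of the 13 promoters against 49.5% of all. It was in 8 of the 9 genes, Cldn6 being without it, against 51.9% of genes. Each match is a string of letters, not a measured site.

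Most of the 10 genes were highest in the 4 samples of the long-Klf4 and tagged-Klf4 cassettes; Cldn3, Tjp3 and Lsr were not cleanly so, since a short-Klf4 cassette reached above a long-Klf4 one for each. Relative to lacZ, 9 of the 10 were at least 2-fold higher in OSKM (against 4% of all genes), 9 in OKN-HAMS (4.08%), 7 in OK+9MS (3.71%) and 7 in MKOS (2.71%). The count was 3 in OKMS (3.39%), 1 in STEMCCA (1.45%) and 0 in EB-C5 (3.01%) and WTSI (2.14%). It was 0 in Klf4S (1.88%) and Klf4L (1.99%) as well. These counts compare single arrays and have no test.

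**Figure D1:**
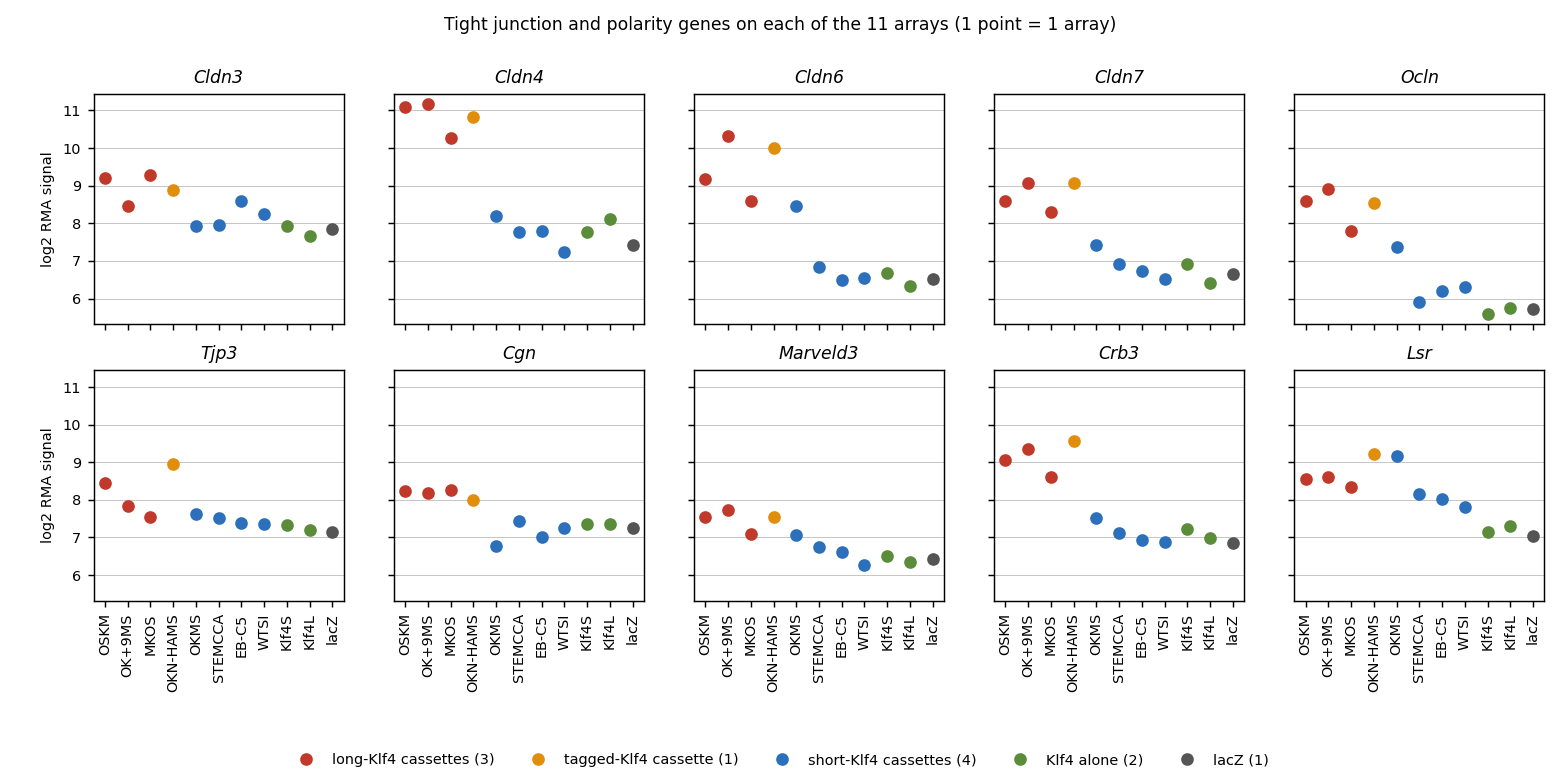
Log2 RMA signal (vertical axis) of each of the 10 genes on the 11 arrays (horizontal axis, 1 point per array, coloured by construct group). Cldn4 lies at 10.27 to 11.17 in the long-Klf4 and tagged-Klf4 cassettes and at 7.25 to 8.20 in every other sample.

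The long-Klf4 cassettes were then compared with the short-Klf4 cassettes (n = 3 against n = 4), which share day and sort. Of the 10 genes 5 rose, Cldn4, Cldn7, Ocln, Cgn and Crb3, by 1.10 to 3.09 on the log2 scale, and none fell. In the limma fit 2.81% of all 19938 genes were called higher at an adjusted p under 0.05, and 3.99% in either direction. The median difference of the 10 genes was 1.43, against -0.02 over all genes. The lowest long-Klf4 value lay above the highest short-Klf4 value for 7 of the 10, against 7.4% of all genes. Values after ± are standard errors of the fit.

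Among the claudins, Cldn4, a sealing claudin of simple epithelia, had the largest difference of the 10. It read 11.09 in OSKM, 11.17 in OK+9MS and 10.27 in MKOS, against 8.20 in OKMS, 7.77 in STEMCCA, 7.79 in EB-C5 and 7.25 in WTSI. All long-Klf4 values lay more than 2 above all short-Klf4 values, and the difference was 3.09 ± 0.28 (limma adjusted p = 0.00129). The long-Klf4 values also lay above 7.76 in Klf4S, 8.11 in Klf4L and 7.43 in lacZ.

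Cldn7, a claudin of the lateral membrane as well as the junction, read 8.58 in OSKM, 9.07 in OK+9MS and 8.31 in MKOS. In the short-Klf4 cassettes it read 7.43 in OKMS, 6.93 in STEMCCA, 6.72 in EB-C5 and 6.52 in WTSI. The groups did not overlap, and the difference was 1.75 ± 0.26 (limma adjusted p = 0.0126). Its call ended without OSKM (adjusted p = 0.0557) and without OK+9MS (adjusted p = 0.05003, just over the threshold).

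Cldn6, a claudin of embryonic epithelia that pluripotent cells also express, varied as widely but did not pass the test. It read 9.18 in OSKM, 10.33 in OK+9MS and 8.59 in MKOS, against 8.47 in OKMS, 6.84 in STEMCCA, 6.48 in EB-C5 and 6.54 in WTSI. OKMS thus lay just under MKOS and far from the other short-Klf4 cassettes. The difference was 2.28 ± 0.56 (limma adjusted p = 0.073), and 0.0189 without OKMS. Cldn3, another claudin of simple epithelia, read 8.47 to 9.29 in the long-Klf4 and 7.93 to 8.58 in the short-Klf4 cassettes, groups that overlapped at OK+9MS and EB-C5 (difference 0.81 ± 0.23, limma adjusted p = 0.113).

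Of the MARVEL-domain proteins, Ocln (occludin, the first integral protein of the tight junction to be described) read 8.60 in OSKM, 8.91 in OK+9MS and 7.79 in MKOS. It read 7.36 in OKMS, 5.90 in STEMCCA, 6.19 in EB-C5 and 6.31 in WTSI. STEMCCA and EB-C5, like Klf4S (5.60), Klf4L (5.75) and lacZ (5.73), were within the low end of the array, so differences from them are lower bounds in size. The groups did not overlap and the difference was 1.99 ± 0.38 (limma adjusted p = 0.0297). Its call was the least stable of the 5. It ended without OSKM (limma adjusted p = 0.121), without OK+9MS (0.115), and without EB-C5 or WTSI. It also ended in a fit on the arrays compared alone (0.0712). For this comparison that is the same fit as without Klf4S or without Klf4L. Marveld3, its paralogue, read 7.10 to 7.74 in the long-Klf4 and 6.28 to 7.07 in the short-Klf4 cassettes, with no overlap (difference 0.79 ± 0.21, limma adjusted p = 0.0876).

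Lsr, the angulin that recruits tricellulin to the corners where 3 cells meet, was the gene of the 10 with the smallest difference. It read 8.56 in OSKM, 8.61 in OK+9MS and 8.34 in MKOS, and 9.16 in OKMS, 8.16 in STEMCCA, 8.03 in EB-C5 and 7.82 in WTSI. OKMS had a higher value than any long-Klf4 cassette, and the difference between the groups was 0.21 ± 0.29 (limma adjusted p = 0.787). Against Klf4 alone, in contrast, Lsr was higher in every cassette.

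Of the scaffold proteins, Cgn (cingulin, which links the junction to actomyosin) read 8.24 in OSKM, 8.18 in OK+9MS and 8.25 in MKOS. The short-Klf4 cassettes read 6.78 in OKMS, 7.44 in STEMCCA, 7.02 in EB-C5 and 7.24 in WTSI. The long-Klf4 values lay within 0.08 of each other, and the difference was 1.10 ± 0.14 (limma adjusted p = 0.00636). Tjp3 (ZO-3, the scaffold of the ZO family most restricted to epithelia) read 8.45 in OSKM, 7.83 in OK+9MS and 7.55 in MKOS, against 7.36 to 7.63 in the short-Klf4 cassettes. MKOS lay below OKMS, and the difference was 0.47 ± 0.19 (limma adjusted p = 0.246).

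Crb3, the Crumbs protein of epithelial apical membranes, read 9.07 in OSKM, 9.36 in OK+9MS and 8.60 in MKOS. It read 7.52 in OKMS, 7.13 in STEMCCA, 6.93 in EB-C5 and 6.88 in WTSI. The groups did not overlap, and the difference was 1.90 ± 0.21 (limma adjusted p = 0.00359). Cldn4, Cgn and Crb3 stayed called in all 17 alternatives tried for this comparison, with adjusted p-values up to 0.00943, 0.0352 and 0.0224. Of the 10 genes 3 were called without OSKM or without OK+9MS, and 7 with OKN-HAMS counted as a long-Klf4 cassette, Cldn6 and Marveld3 being added.

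**Figure D2:**
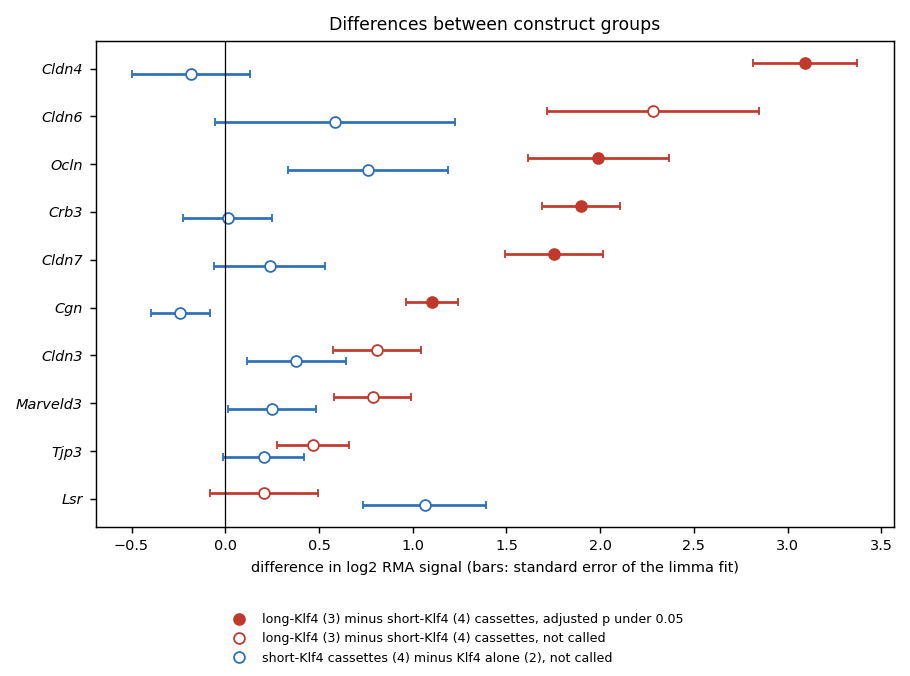
Difference in log2 RMA signal (horizontal axis) for each gene: long-Klf4 minus short-Klf4 cassettes in red and short-Klf4 cassettes minus Klf4 alone in blue, with limma standard errors as bars and filled points for an adjusted p under 0.05. Cldn4, Ocln, Crb3, Cldn7 and Cgn have filled red points, and no blue point is filled.

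OKMS differed from the other short-Klf4 cassettes in several genes. It lay above the other 3 short-Klf4 cassettes for Cldn4, Cldn6, Cldn7, Ocln, Tjp3, Marveld3, Crb3 and Lsr, but not for Cldn3 or Cgn. How often a gene of the whole array is so placed was not counted, so this describes OKMS and is not particular to these genes. The gap to their mean was 1.85 for Cldn6, 1.23 for Ocln, 1.16 for Lsr and 0.71 for Cldn7. For Cgn OKMS was instead the lowest of all 11 samples, 0.45 below that mean.

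The tagged-Klf4 cassette OKN-HAMS, a single array that borrowed its spread from the other groups, had levels near those of the long-Klf4 cassettes for most genes. It was above every short-Klf4 cassette for 10 of the 10 genes, against 17.7% of all genes. Cldn4 (10.83, difference 3.08 ± 0.41, limma adjusted p = 0.0211) and Crb3 (9.57, difference 2.45 ± 0.31, limma adjusted p = 0.0178) were called against the short-Klf4 cassettes, 2 of 10 where 0.597% of all genes were called higher. This construct has no replicate, so these calls assume that it varies like the others. The number was 0 without Klf4S or without Klf4L and 4 with a trended, robust prior. Tjp3 (8.96), Crb3 (9.57) and Lsr (9.22) had their highest value of any array in OKN-HAMS, and Cldn7 (9.07) equalled OK+9MS there to 2 decimals. Cldn6 read 10.01, Ocln 8.53, Cldn3 8.88, Cgn 7.999 and Marveld3 7.54 in OKN-HAMS.

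OKMS and OK+9MS are named alike apart from the 9 residues on Klf4, as are Klf4S and Klf4L, so the extension can be read inside and outside a cassette, on 1 array a side and without a test. Inside the cassette, 6 of the 10 genes exceeded their OKMS value by 2-fold or more in OK+9MS, against 2.3% of all genes, and the median of the 10 was 1.47 against 0.01 over all genes. The differences were 2.98 for Cldn4, 1.86 for Cldn6, 1.84 for Crb3, 1.64 for Cldn7, 1.55 for Ocln and 1.39 for Cgn, with 0.66 for Marveld3, 0.54 for Cldn3, 0.20 for Tjp3 and -0.55 for Lsr. Outside the cassette, 0 of the 10 were 2-fold higher or lower in Klf4L than in Klf4S, and of all 19938 genes 0% were 2-fold higher and 0% 2-fold lower. Those differences ran from -0.52 for Cldn7 to 0.35 for Cldn4, with a median of -0.15. The same cassette with the tag in place of the residues gave 7 genes at least 2-fold above OKMS, against 1.94% of all genes. Of the 10, Tjp3 was at least 2-fold higher in OKN-HAMS than in OK+9MS (1.13), against 0.251% of all genes, and 0 were 2-fold lower, against 0.767%.

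**Figure D3:**
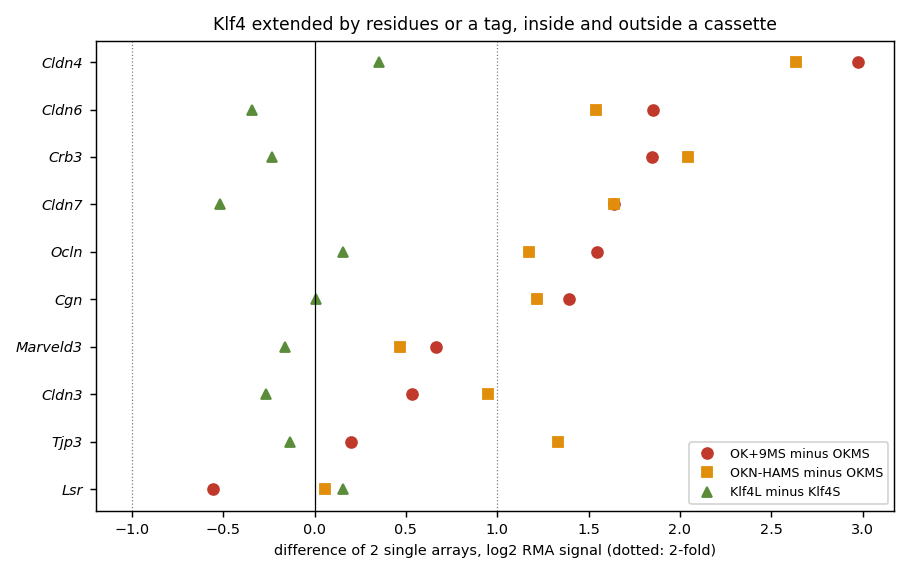
Differences of single arrays in log2 RMA signal (horizontal axis; dotted lines at 2-fold) for each gene: OK+9MS minus OKMS as circles, OKN-HAMS minus OKMS as squares and Klf4L minus Klf4S as triangles. Triangles lie between -0.52 and 0.35, while circles reach 2.98 at Cldn4.

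Klf4 alone left the 10 genes near lacZ. In the limma fit of all cassettes, Klf4 alone and lacZ (n = 8, 2 and 1), 0 of the 10 were called between Klf4 alone and lacZ, 0 had an unadjusted p under 0.05, and their median difference was 0.06; 0.747% of all genes were called. Cldn4 had the largest of these differences, 7.76 and 8.11 against 7.43 (0.50 ± 1.77, limma adjusted p = 0.987). The standard error is that wide because the fit takes the cassettes' own spread. Against the cassettes together lacZ had 0 of the 10 called by limma, 1 at an unadjusted p under 0.05 (Lsr, 1.45 ± 0.46, adjusted p = 0.162), where 2.05% of all genes were called.

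Between all cassettes and Klf4 alone, Lsr was the 1 gene of the 10 that rose. That count is near the share of all genes called higher (6.35%). Cldn3, Ocln and Tjp3 were also higher in all 8 cassettes than on both Klf4 arrays but did not pass the test. The share of all genes so placed was not counted, so nothing is read from it. Lsr read 7.82 to 9.22 with a median of 8.45 in the cassettes. Klf4S read 7.15, Klf4L 7.31 and lacZ 7.04. The groups did not overlap, and the difference was 1.26 ± 0.34 (limma adjusted p = 0.0394). The call ended without OSKM (adjusted p = 0.0617), OK+9MS (0.0630), Klf4S (0.264) or Klf4L (0.195). With the cassettes split by Klf4 form in the fit, 5 of the 10 genes were called; that fit takes the spread between the forms out of the error and keeps the spread within them.

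Split by form, 5 of the 10 genes rose in the long-Klf4 cassettes against Klf4 alone and 0 in the short-Klf4 cassettes. These comparisons share the Klf4 arrays with each other. In the long-Klf4 cassettes the differences from Klf4 alone were 2.91 for Cldn4, 2.75 for Ocln, 1.99 for Cldn7, 1.91 for Crb3 and 0.86 for Cgn, with limma adjusted p-values from 0.00629 to 0.0309, where 3.24% of all genes were called higher. The count was 0 without Klf4S or without Klf4L, 2 without OSKM and 3 without OK+9MS, and 8 or 9 under 4 other settings. The lowest long-Klf4 value was above both Klf4 arrays for 10 of the 10 genes, against 20.6% of all genes. In the short-Klf4 cassettes 1 of the 10 had an unadjusted p under 0.05, Lsr (1.06 ± 0.33, limma adjusted p = 0.0578), where 8.48% of all genes were called higher. Cldn4 was there 0.18 lower and Crb3 0.01 higher than in Klf4 alone, neither called. All 4 short-Klf4 cassettes lay above both Klf4 arrays for 4 of the 10, Cldn3, Ocln, Tjp3 and Lsr, against 18.5% of all genes.

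Across the 11 arrays the 10 genes had correlated signals, which is a description of arrays that share a normalization and include the groups above. Over the 45 pairs, Pearson's r ran from 0.32 (Cgn and Lsr) to 0.99 (Cldn7 and Crb3), with a median of 0.80. Over the 8 cassettes alone the median was 0.74 and the range 0.08 to 0.99. Cldn7 and Crb3 were each other's closest gene, Cldn4 was closest to Crb3 (0.98), Cldn6 to Cldn7 (0.98), Ocln to Cldn6 (0.97), Marveld3 to Cldn6 (0.97), Cgn to Cldn4 (0.89), Tjp3 to Crb3 (0.85), Lsr to Ocln (0.81) and Cldn3 to Cldn4 (0.76). After each gene was scaled to an SD of 1, their mean level was highest in OKN-HAMS (1.37), followed by OSKM (1.17), OK+9MS (1.14) and MKOS (0.69). OKMS stood at -0.07, and STEMCCA (-0.48), EB-C5 (-0.56), WTSI (-0.72), Klf4S (-0.74), Klf4L (-0.88) and lacZ (-0.92) followed.

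Over the 11 arrays the 8 other genes most like that mean were Kdf1 (r = 0.99), which acts in keratinocyte differentiation, Ap1m2 (0.99), the epithelial subunit of the AP-1 sorting adaptor, Abcc8 (0.98), Elovl7 (0.98), Bspry (0.98), Tnk1 (0.98), Rnf208 (0.97) and Tmc8 (0.97). Ap1m2 read 8.44 to 9.09 in the long-Klf4 cassettes, 10.05 in OKN-HAMS, 7.50 in OKMS and 6.03 to 6.69 in the 6 remaining samples. The 5 most opposite were Cyp2u1 (-0.94), Yaf2 (-0.93), Slc22a15 (-0.92), Snx25 (-0.92) and Gli3 (-0.92).

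The wider families were read in the same comparison of long-Klf4 with short-Klf4 cassettes, where 3.99% of all genes were called. Of 22 claudins 3 rose, Cldn4, Cldn7 and Cldn9 (0.71 ± 0.15, limma adjusted p = 0.0416), and the median of the 22 was 0.01. Of 6 MARVEL and tricellular proteins 4 rose. They were Ocln, the angulins Ildr1 (1.38 ± 0.22, limma adjusted p = 0.0175) and Ildr2 (0.58), and tricellulin, Marveld2 (1.22 ± 0.17, limma adjusted p = 0.0101). Ildr2 lost its call without OSKM (limma adjusted p = 0.0715) and with OKN-HAMS counted as long (0.40, limma adjusted p = 0.264). In OKN-HAMS Ildr2 read 6.77, below the 6.82 to 6.97 of the short-Klf4 cassettes. Of 7 junction proteins of the immunoglobulin family 1 rose, F11r (JAM-A). It read 11.20, 11.01 and 10.64 in OSKM, OK+9MS and MKOS. OKMS, STEMCCA, EB-C5 and WTSI read 9.21, 8.63, 8.04 and 8.40 (difference 2.38 ± 0.26, limma adjusted p = 0.00334). For F11r Klf4S read 9.89, Klf4L 10.02 and lacZ 9.02, so STEMCCA, EB-C5 and WTSI lay below lacZ and Klf4 alone above it.

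Of 16 plaque proteins measured 3 rose, Cgn, the Crumbs-complex scaffold Patj (0.64) and the RhoA activator Arhgef18 (0.62). The scaffold Magi1 was the 1 called lower (-0.77 ± 0.10, limma adjusted p = 0.00625). Magi1 read 8.23 to 8.36 in the long-Klf4 and 8.85 to 9.29 in the short-Klf4 cassettes. Klf4S read 7.91, Klf4L 7.95 and lacZ 8.07, so the long-Klf4 cassettes were not below these samples. Tjp1 (ZO-1), which fibroblasts also make, was named after its values were seen. It read 9.98 to 10.69 on every array, and its difference of 0.21 did not pass. Of 15 apical polarity genes 2 rose, Crb3 and Patj. Of 6 basolateral ones 1 rose, Llgl2 (1.78 ± 0.37, limma adjusted p = 0.0395).

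Of 17 epithelial regulators and surface proteins 4 rose. They were the transcription factors Ovol1 (2.16 ± 0.23) and Grhl3 (1.13 ± 0.23) and the membrane proteases St14 (2.38 ± 0.42) and Prss8 (0.92 ± 0.19), with limma adjusted p-values from 0.00279 to 0.0397. Grhl3 was as high in Klf4S (9.53) and Klf4L (9.46) as in the long-Klf4 cassettes (9.14 to 9.21), while the 10 junction genes were near lacZ there. Of 6 factors that drive the epithelial-to-mesenchymal transition, among them Snai1 and Zeb1, none was called by limma, with 0 at an unadjusted p under 0.05 and a median of 0.19. Of the 20 genes outside the 10 that were called in these lists and the marker lists, 6 kept the call in all 17 alternatives (Marveld2, F11r, Magi1, Ovol1, Krt14 and Dsg3), while the other 14 lost it in some, Cldn9, Arhgef18, Patj, Llgl2, Grhl3, St14 and Prss8 among them without OSKM or without OK+9MS.

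**Figure D4:**
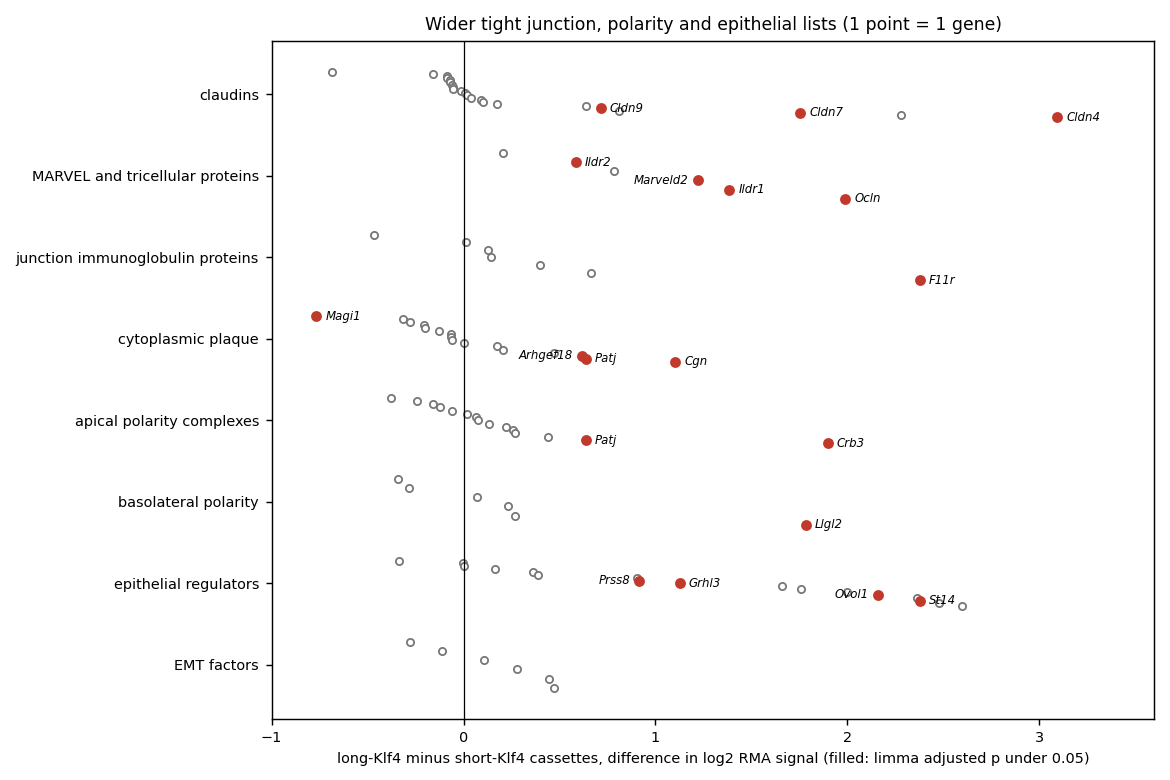
Difference between long-Klf4 and short-Klf4 cassettes in log2 RMA signal (horizontal axis) for every gene of 8 lists (rows, 1 point per gene; filled and named where the limma adjusted p is under 0.05). Points named on the right of 0 reach 3.09 at Cldn4, and Magi1 at -0.77 is the one named on the left.

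Between all cassettes and Klf4 alone, where 14.5% of genes were called, the calls fell on Lsr and on junction genes outside the 10. Cxadr, an immunoglobulin-family junction protein and virus receptor, rose in every cassette. It read 8.94 to 10.09 there and 7.18 to 7.53 in Klf4 alone and lacZ (2.29 ± 0.27 against Klf4 alone, limma adjusted p = 0.00221). Ildr2 was high in Klf4 alone, 9.13 and 9.12, against 6.77 to 7.63 in the cassettes and 7.27 in lacZ (-2.02 ± 0.23, limma adjusted p = 0.00181). Cldn1, the claudin of the epidermal barrier, read 8.98 and 9.01 in Klf4 alone, 7.05 to 8.50 in the cassettes and 7.95 in lacZ. Its difference between cassettes and Klf4 alone was -1.23 ± 0.34 (limma adjusted p = 0.0406).

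Of the 22 claudins 2 fell in that comparison, Cldn1 and Cldn20 (-0.24). Of the 6 MARVEL and tricellular genes Lsr rose and Ildr2 fell. Of the 7 immunoglobulin genes Cxadr rose while Esam (-1.85), also an endothelial protein, and Clmp (-0.98) fell. Esam read 8.13 and 8.65 in Klf4 alone, 6.29 to 6.69 in the cassettes and 6.93 in lacZ. Clmp read 10.12 and 10.24 in Klf4 alone, 8.65 to 9.89 in the cassettes and 10.35 in lacZ. Of the 16 plaque genes 1 rose and 4 fell, the latter Cgnl1, the paralogue of Cgn (-1.23), Mpdz (-0.99), Amotl1 (-0.76) and Arhgef2 (-0.62). Of the 15 apical polarity genes Lin7c rose (0.80) and Pard6g fell (-0.87), and 0 of the 6 basolateral ones were called by limma, with 0 at an unadjusted p under 0.05. Of the 17 regulators and surface proteins Epcam (3.12) and Elf3 (0.66) rose. Of the 6 factors that drive the epithelial-to-mesenchymal transition 0 were called by limma. Their median was -0.85, against -0.02 over all genes, and 5 had an unadjusted limma p under 0.05. Of the 18 genes outside the 10 called in these lists and the marker lists, Ildr2 and Esam kept the call in all 17 alternatives and 16 lost it in some. Cxadr lost it without Klf4S (adjusted p = 0.0629), and Cldn1, Epcam, Elf3 and Clmp lost it without any of several single arrays, both Klf4 arrays among them.

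Keratins and other epithelial markers were also called between long-Klf4 and short-Klf4 cassettes, where 2.81% of all genes were called higher. Of 5 simple epithelium markers 3 rose, Krt8 (3.38), Krt19 (2.79) and Krt18 (1.72), and the mean level of the 5 was 10.60 to 11.36 in the long-Klf4 and 7.98 to 9.68 in the short-Klf4 cassettes. Krt8, Krt18 and Krt19 each lost the call without OSKM or without OK+9MS. In Klf4 alone the mean level was 8.35 to 8.52, with Epcam at the low end, and 7.68 in lacZ. Of 5 keratinocyte markers 2 rose, Krt14 (4.80) and Dsg3 (3.599), and their mean level was 8.10 to 8.61, 6.56 to 6.68, 7.90 to 8.10 and 6.62 in the same order of groups. In the mean of keratinocyte markers Klf4 alone was thus nearer to the long-Klf4 cassettes than to lacZ, while the 10 genes were near lacZ. Krt14 (10.84 and 11.37 in Klf4S and Klf4L, 7.01 in lacZ) and Dsg3 (7.45 and 7.98, 5.66) differed most from lacZ. Krt5 (7.3 and 7.11, 6.7), Krt15 (6.84 and 6.88, 6.76) and Trp63 (7.08 and 7.17, 6.99) differed less.

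Markers of other cells were read in the same way, with 3.99% of all genes called. Of 8 fibroblast markers 1 rose, Dcn (1.63), with mean levels of 11.38 to 11.73 in the long-Klf4 and 10.88 to 11.78 in the short-Klf4 cassettes. Of 7 endothelial markers none was called by limma and 1 had an unadjusted p under 0.05 (mean level 6.70 to 6.90 against 6.66 to 6.82, with Kdr at the low end in both). Tek read 9.05 to 10.03 in the cassettes, 7.95 and 7.88 in Klf4S and Klf4L and 6.24 in lacZ. Between all cassettes and Klf4 alone, where 14.5% of genes were called, Tek was called higher and Esam lower. The call of Tek is among the 16 that some alternatives lost. Of 6 blood and macrophage markers Cd68 rose (1.03), while Ptprc, Csf1r, Adgre1 and Lyz2 were at the low end in every group. The part of other cell types in the results was not tested.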

How the data were processed

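The data are 11 Affymetrix mouse gene arrays, 1 for each construct. The deposited values are log2 signals that the authors made with RMA, per the submitters' processing notes; no RMA version is given in the sources used here. RMA can understate large differences. Of 28856 probe sets, 21789 had 1 gene symbol in the platform table, 1621 several and 5446 none; the first were kept, with the probe set of highest mean for the 999 genes that had more than 1, which gave 19938 genes. No gene was filtered out.

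Differences were fitted with limma 3.58.1 (lmFit and eBayes, R 4.3.3) and p-values were adjusted across the 19938 genes by Benjamini-Hochberg; a gene was called at an adjusted p under 0.05. Comparisons of cassettes, Klf4 alone and lacZ came from a fit of 3 groups with 8 residual degrees of freedom, and those by Klf4 form from a fit of 5 groups with 6. The lacZ and OKN-HAMS arrays, single ones, take their spread from the other groups. Single-array differences were counted at 2-fold. The procedure was tested on simulated data. The genes and lists were chosen with earlier results of these data known. Outside the 10 genes, the text names called genes of each list, up to 4 by size, and the 8 most and 5 least like the mean of the 10. Alternatives were the mean of probe sets, a filter at a signal of 6 on at least 2 arrays, renewed quantile normalization, another prior, fewer groups and each array left out.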

Additional observations from a re-analysis of the deposited data

Results flagged for a closer look

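For 7 of the 10 genes the extension of Klf4 went one way inside the cassette (OK+9MS minus OKMS) and the other way outside it (Klf4L minus Klf4S). The share of all genes with opposite signs was not counted. Outside the cassette 0% of all genes were 2-fold higher and 0% 2-fold lower, so the signs there rest on small differences. With 1 array a side the difference between the contexts was not tested. The log2 difference was 1.86 inside and -0.34 outside for Cldn6, 1.84 and -0.23 for Crb3, and 1.64 and -0.52 for Cldn7. It was 0.66 and -0.16 for Marveld3, 0.54 and -0.26 for Cldn3, and 0.20 and -0.13 for Tjp3, whose differences are small in both contexts. Lsr went the other way, at -0.55 inside and 0.16 outside. Dixon's test of the gap between the highest or lowest array and the rest, run for each gene in the 4 short-Klf4 cassettes and in all 8 cassettes, passed its limit in 0 of 20 cases. With 4 arrays only a very wide gap can pass, and OKMS read 8.47 for Cldn6 where the other short-Klf4 cassettes read 6.48 to 6.84.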

How the results depend on the processing

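Between long-Klf4 and short-Klf4 cassettes, 3 to 6 of the 10 genes were called with an array left out and 4 to 7 under the other settings, against 5, with no change of sign. The other comparisons by Klf4 form moved more. OKN-HAMS against the short-Klf4 cassettes gave 0 to 4 calls with an array left out, 4 with a trended, robust prior and 1 on the arrays compared alone, against 2. Long-Klf4 cassettes against Klf4 alone gave 0 to 8, then 8 with the filter on dim genes, 8 with the trended, robust prior, 9 on the arrays compared alone and 9 with OKN-HAMS counted as long, against 5. Short-Klf4 cassettes against Klf4 alone gave 0 to 1, and 1 with the filter and 1 with the other prior, against 0. All cassettes against Klf4 alone gave 0 to 1, and 5 with the cassettes split by Klf4 form, against 1. With an array left out, Klf4 alone minus lacZ, near 0 and uncalled in the full fit, changed sign for Cldn3 (-0.17 to 0.091), Cldn6 (-0.18 to 0.16), Cldn7 (-0.24 to 0.28), Ocln (-0.13 to 0.021) and Marveld3 (-0.10 to 0.059). Short-Klf4 cassettes minus Klf4 alone changed sign for Cldn7 (-0.023 to 0.496) and Crb3 (-0.12 to 0.13), neither called. A group left with 1 array takes its spread from the rest. The causes were not tested. Signal over background limits Ocln most, at the low end of the array on 5 of 11 samples, and Marveld3 on 1. No paired analysis was possible because each construct had a single array.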

Other observations

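Some of the genes lie next to a relative on the chromosome in RefSeq (GRCm38.p6), which was looked at after their values were seen. Cldn3 and Cldn4 are neighbours, as are Cldn6 and Cldn9, and Ocln and Marveld2, the gene of tricellulin. Of the 17 measured neighbours of the 10 genes that are not among them, 2 were higher in the long-Klf4 than in the short-Klf4 cassettes in the limma fit, where 2.81% of all genes were called higher. They were Cldn9 (0.71 ± 0.15, limma adjusted p = 0.0416) and Marveld2 (1.22 ± 0.17, limma adjusted p = 0.0101), both of which are tight junction genes. The other 15 were not called. Abhd11 and Mettl27, which flank the pair of Cldn3 and Cldn4, had differences of 0.11 ± 0.13 and 0.29 ± 0.18, while between them Cldn4 had 3.09 ± 0.28 and Cldn3 0.81 ± 0.23, the latter not called (limma adjusted p = 0.113).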
